A study of Mus musculus with 10 samples.

Results

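The respiratory chain of the inner mitochondrial membrane is built mostly from proteins encoded in the nucleus, and the genes described here are those named for subunits of complexes I to V. They were taken by name from the protein-coding rows of the count table, as symbols beginning with Nduf followed by a, b, c, s or v and a number, the 4 Sdh genes, and symbols beginning with Uqcr, Cox4 to Cox8 or Atp5. This rule found 88 of the 56980 rows of the table, with 39 in complex I, 4 in complex II, 8 in complex III, 19 in complex IV and 18 in complex V. The 88 rows carry 87 symbols, because Atp5o stands on a pair of identifiers. The name rule used no measured value.

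Bulk RNA-seq was done on macrophages of mice with a macrophage knockout of Jaml, which encodes a junctional adhesion molecule-like protein, and on macrophages of WT mice. Cells of both genotypes had been given 8 h of lipopolysaccharide (LPS, 100 ng/ml) followed by 30 min of ATP (5 mM), a pair of stimuli used to activate the NLRP3 inflammasome, and no unstimulated group was compared. There were 5 KO and 5 WT libraries. The titles call the mutant a macrophage knockout while its genotype tag reads JAML Knockdown. The labels name no Cre driver, strain, age, sex or tissue source, and they do not say whether libraries came from separate animals, so p-values measure the spread between libraries, which may be technical. The 5 WT columns match the labels, whereas the other 5 count columns carry the heading SI, whose meaning the labels do not give, and stand for KO only because no other group remains. Every direction below rests on that assignment, and the KO numbers only name libraries.

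Library totals were between 19319512 and 22766319 counts, and 14436 genes passed the filter on low counts. Jaml itself could not check the labels, with 2 counts in KO 4 and in WT 1 and 0 in the other 8 libraries. On the second principal component KO 1 and KO 3 stood at 27.6 and 37.6, apart from the other 8 libraries at -16.6 to 4.32. All 7 macrophage markers were detected, with a summed level of 21980 to 23993 CPM (counts scaled to a common library size) in KO and 23131 to 24595 CPM in WT that was mostly Lyz2 (17531 CPM in KO, 18210.0 CPM in WT). Of the 7, Csf1r was higher and Mertk and Fcgr1 were lower, Fcgr1 at 59.1 ± 7.64 CPM in KO and 182 ± 10.7 CPM in WT (SD, n = 5 each). Markers of other cells also moved with genotype, among them endothelial markers (10.3 to 12.2 CPM in KO against 22.8 to 28.7 CPM in WT, with 1 of 2 tested genes lower), mast cell markers (4.23 to 5.21 CPM in KO against 7.27 to 13.1 CPM in WT, with 3 of 4 tested genes lower) and neutrophil markers (22.8 to 26.8 CPM in KO against 14.7 to 18.9 CPM in WT, with both tested genes higher). The endothelial sum was mostly Kdr, with Pecam1 at most 0.269 CPM in any library, and the neutrophil sum mostly S100a8, with S100a9, Ly6g, Mpo and Elane at most 0.295 CPM in any library and not tested. Of 4 fibroblast markers 2 were higher and 1 lower (374 to 470.4 CPM in KO against 362 to 409 CPM in WT), and of 3 mesothelial markers 1 was lower (0.736 to 14.8 CPM in KO against 7.91 to 14.3 CPM in WT). T cell markers reached at most 0.151 CPM in KO and 0.102 CPM in WT, with Cd3e at 0 in all libraries. B cell markers reached at most 0.216 CPM in KO and 0.268 CPM in WT, and of 2 tested dendritic cell markers 0 were higher or lower. Of 4 proliferation markers 1, Top2a, was lower, at 26.8 ± 7.75 CPM in KO and 38.9 ± 5.39 CPM in WT (SD, n = 5 each). Whether other cell types contribute to the respiratory results was not tested, and in bulk RNA fewer cells of a type cannot be told apart from less RNA per cell.

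Electrons from NADH enter the chain at complex I and those from succinate at complex II, pass through ubiquinone to complex III and through cytochrome c to complex IV, where oxygen is reduced. Complexes I, III and IV pump protons, and complex V, the ATP synthase, uses the proton gradient to make ATP. In macrophages, LPS is known to shift metabolism towards glycolysis, with itaconate acting on complex II and nitric oxide on the chain, and reactive oxygen species made at the chain have been linked to NLRP3 activation.

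Transcripts of the respiratory complexes were higher in KO macrophages by small amounts and in all 5 complexes. Of 79 respiratory genes that passed the low-count filter, 31 rose in KO and 48 did not pass the test (edgeR quasi-likelihood test with Benjamini-Hochberg adjustment over all genes tested, adjusted p under 0.05). The 31 are 39.2% of those tested, and 14.1% of all genes tested were called higher and 15% lower. None was called lower by edgeR, DESeq2 or limma-voom, and 0 were lower at an unadjusted p under 0.05, at which 43 were higher. The estimate was above 0 for 74 of the 79 and below 0 for 5, with a median log2 fold change (KO over WT) of 0.16 beside 0.01 for all genes tested.

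The changes were narrow in size. The 31 genes called higher had log2 fold changes of 0.11 to 0.33, which is 7.97% to 26.0%, and Ndufb6 had the highest. The median log2 fold change of the called respiratory genes was 0.22, whereas the median absolute log2 fold change of all called genes was 0.35. In 21 of the 79 genes all 5 KO libraries lay above all 5 WT libraries, and in 0 did they all lie below, while 10.9% of all genes tested had KO above and 12.4% had KO below.

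The size of the group of calls depended on how libraries were scaled. The main scaling used TMM factors, which correct library totals for composition and averaged 1.04 in KO and 0.961 in WT. With library totals alone, 60 of the 79 genes were called higher, the median of the respiratory genes was 0.27 and the median of all genes moved to 0.12, with 29.3% of all genes called higher and 9.43% lower. Under both scalings 74 of the 79 genes had estimates above the median of all genes. Without KO 1 and KO 3, a comparison added after the data were seen, 25 were called higher and 1, Uqcrh, lower, beside 12.9% and 15.4% of all genes.

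**Figure D1:**
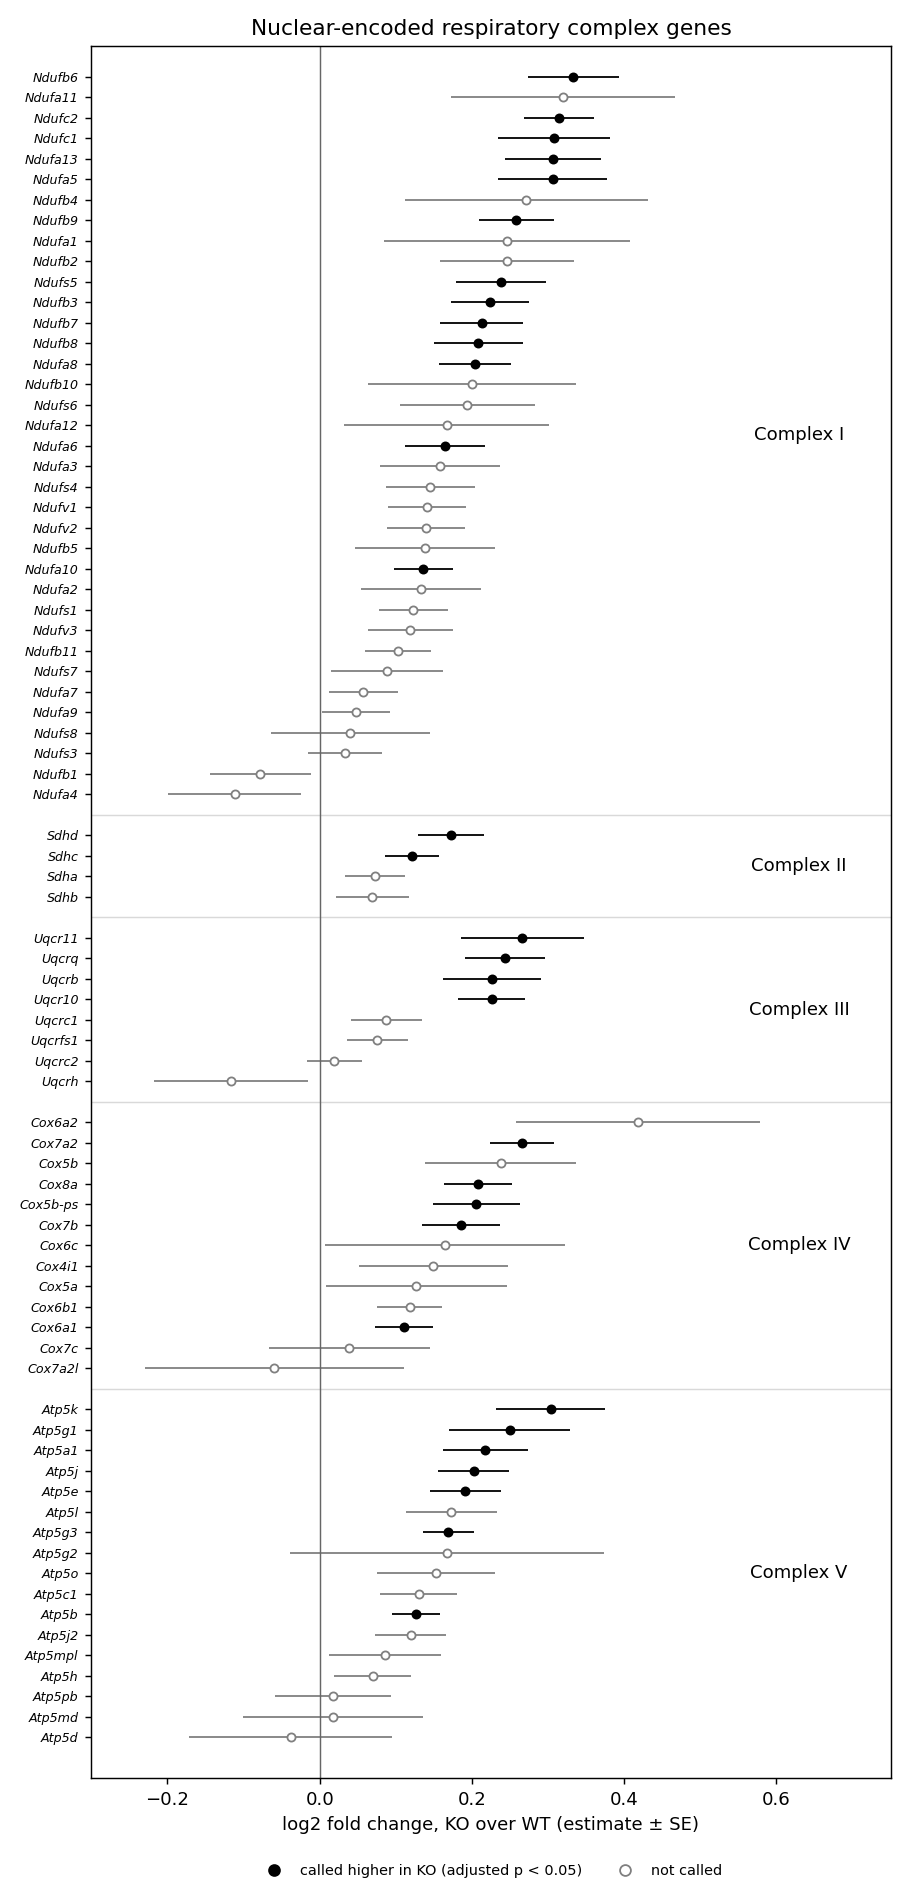
Log2 fold change of KO over WT (x axis, estimate ± SE from edgeR) for respiratory genes that were tested, arranged by complex and by size. Filled points mark the 31 genes called higher, open points genes that were not called, and the 5 estimates below 0 are all open.

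Summed over all 88 genes, the TMM-normalised level was 6196, 6276, 6100.0, 6009 and 6173 CPM in KO 1 to KO 5, against 5546, 5490, 5808, 5525 and 5608 CPM in WT 1 to WT 5. The lowest KO library was thus above the highest WT library. The means were 6151 ± 101 CPM in KO and 5595 ± 126 CPM in WT (SD, n = 5 each), a ratio of 1.10. As a share of raw counts, which TMM does not touch, these genes took 0.616% to 0.661% in KO and 0.531% to 0.554% in WT.

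Complex V held the most counts, with 2257 ± 46.6 CPM in KO and 2048 ± 53.5 CPM in WT (SD, n = 5 each), followed by complex I with 1538 ± 38.5 CPM in KO and 1383 ± 34.4 CPM in WT. The sums of complex II (561 ± 13.9 CPM in KO, 523 ± 5.61 CPM in WT) and complex III (616 ± 13.3 CPM in KO, 570 ± 16.4 CPM in WT) were smaller. All 4 of these sums had every KO library above every WT library. Complex IV, at 1180 ± 46.0 CPM in KO and 1071 ± 39.1 CPM in WT, was the exception, because KO 4 at 1102 CPM was below WT 3 at 1129 CPM. Ratios of KO to WT were 1.11 for complex I, 1.07 for II, 1.08 for III, 1.10 for IV and 1.10 for V, and no p-value was computed for these sums.

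**Figure D2:**
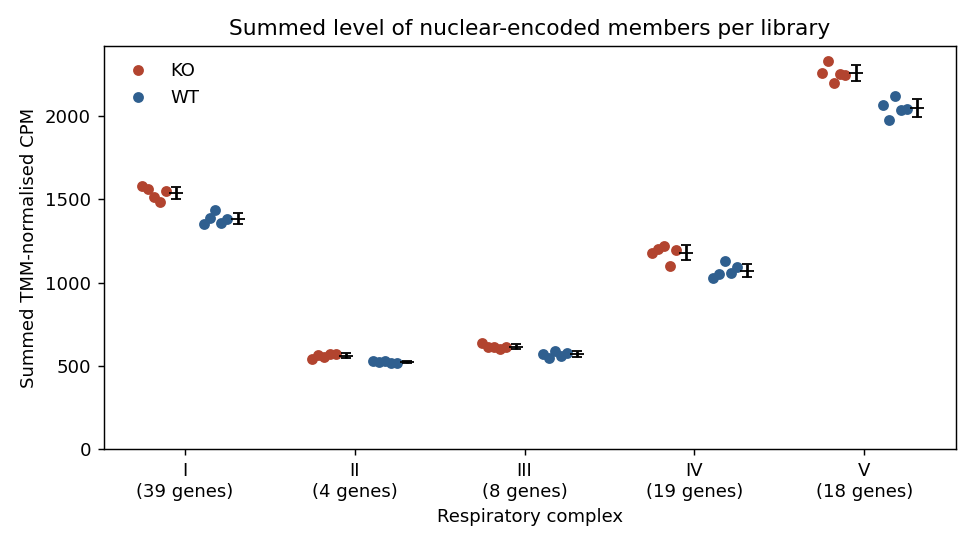
Summed TMM-normalised CPM of the genes of each complex (y axes, from 0) in every library, with KO left of WT and black bars for the mean ± SD of 5 libraries. KO and WT points are separate for complexes I, II, III and V and overlap for complex IV.

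The promoters of these genes are known for binding sites of NRF1, of GABP (an ETS factor also called NRF2) and of YY1, and 5 are shown, 1 per complex, from genes that rose and carry such a motif. Windows of 250 bases before to 50 after the transcription start were taken from RefSeq on GRCm38.p6, where 69 of the 87 symbols had an entry. The 5 windows all lie on the minus strand and are written 5′ to 3′ in the direction of transcription, with capitals on every match to the core of the NRF1 motif (10 bases, in Sdhd and Atp5g3) or to the ETS motif CCGGAAG (7 bases), searched on both strands. They are Ndufb6 at chr4:40279372-40279671, Sdhd at chr9:50603800-50604099, Uqcr11 at chr10:80406772-80407071, Cox8a at chr19:7217567-7217866 and Atp5g3 at chr2:73911277-73911576.
Ndufb6: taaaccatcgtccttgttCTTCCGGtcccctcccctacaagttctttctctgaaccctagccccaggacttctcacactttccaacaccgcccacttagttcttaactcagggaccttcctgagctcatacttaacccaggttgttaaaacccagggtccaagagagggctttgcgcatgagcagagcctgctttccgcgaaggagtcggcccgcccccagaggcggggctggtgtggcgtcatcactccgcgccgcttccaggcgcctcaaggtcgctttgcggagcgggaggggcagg
Sdhd: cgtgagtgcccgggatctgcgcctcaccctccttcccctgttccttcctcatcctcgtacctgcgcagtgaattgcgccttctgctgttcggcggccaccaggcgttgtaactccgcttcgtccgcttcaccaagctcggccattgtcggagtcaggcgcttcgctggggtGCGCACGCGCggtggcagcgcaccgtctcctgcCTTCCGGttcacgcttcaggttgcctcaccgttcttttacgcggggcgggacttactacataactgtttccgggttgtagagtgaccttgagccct
Uqcr11: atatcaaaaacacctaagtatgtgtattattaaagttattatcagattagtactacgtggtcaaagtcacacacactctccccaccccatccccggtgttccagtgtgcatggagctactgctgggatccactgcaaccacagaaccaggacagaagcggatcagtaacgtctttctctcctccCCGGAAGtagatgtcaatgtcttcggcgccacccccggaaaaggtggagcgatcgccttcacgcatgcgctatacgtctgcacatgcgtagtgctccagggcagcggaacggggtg
Cox8a: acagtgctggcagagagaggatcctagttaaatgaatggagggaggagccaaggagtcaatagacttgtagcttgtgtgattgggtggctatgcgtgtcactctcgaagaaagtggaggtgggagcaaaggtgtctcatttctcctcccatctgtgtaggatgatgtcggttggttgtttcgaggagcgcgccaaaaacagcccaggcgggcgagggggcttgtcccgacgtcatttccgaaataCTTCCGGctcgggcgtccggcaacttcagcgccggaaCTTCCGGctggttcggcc
Atp5g3: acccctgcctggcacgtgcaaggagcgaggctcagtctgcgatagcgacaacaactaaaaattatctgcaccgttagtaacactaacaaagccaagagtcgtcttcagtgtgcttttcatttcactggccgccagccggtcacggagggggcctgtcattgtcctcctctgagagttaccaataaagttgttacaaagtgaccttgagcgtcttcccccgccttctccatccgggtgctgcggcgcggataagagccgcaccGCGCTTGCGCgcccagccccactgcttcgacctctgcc

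In these windows the ETS match of Ndufb6 began 232 bases and that of Uqcr11 66 bases before the start. Sdhd had an NRF1 match 79 bases and an ETS match 46 bases before the start, and the 2 share no base. Cox8a had ETS matches 5 bases before and at position 32 from the start, and Atp5g3 had an NRF1 match at position 12. The NRF1 motif was found in at least 1 window of 17 of the 69 genes, in 24.3% of their 74 windows and in 4.60% of all 32851 promoter windows of the same length. The ETS motif was found in 17 of the 69, in 23.0% of their windows and 8.86% of all windows, and the YY1 motif AAGATGGCG in 7 of the 69, in 9.46% of their windows and 1.40% of all. Among genes with a window, 15 of 25 called higher and 20 of 40 tested but not called had at least 1 of the 3 motifs. A match describes the letters only and is no evidence of binding.

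Complex I, the NADH dehydrogenase, gave the most calls, with 13 of 37 tested genes higher and a median log2 fold change of 0.16. All 13 were accessory subunits, of which 29 were tested. The name rule left out Ndufab1, another accessory subunit, which is counted below among the electron carriers. Ndufab1 was not called (log2 fold change 0.15 ± 0.08 SE, edgeR adjusted p = 0.183). None of the 7 nuclear-encoded core subunits passed the test. The other core subunits are mitochondrially encoded. Of these, mt-Nd3 and mt-Nd1 were called higher (log2 fold changes 0.53 and 0.23, edgeR adjusted p = 0.00223 and 0.0396) and the rest were not called. The accessory subunits had a median log2 fold change of 0.20 and the nuclear-encoded core subunits one of 0.09. In this nuclear-encoded core group 0 genes were called in the main comparison, by DESeq2 or by limma-voom, and 3 were higher at an unadjusted p under 0.05. Other settings called some of them. With a filter of 50 counts in 5 libraries, 3 core and 14 accessory subunits were higher, beside 17.7% of all genes. With library totals, 6 core and 23 accessory subunits were higher, beside 29.3% of all genes. Over the 19 alternatives other than library totals, core calls numbered 0 to 3, with at least 1 in 8 of them, and accessory calls 10 to 16. The genes were sorted into core and accessory by known role after their values were seen, and the difference between the groups was not tested.

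Ndufc2, an accessory subunit of the membrane arm on chromosome 7 (97049210 to 97057009 as the table lists it), had 55.8, 50.2, 49.9, 49.6 and 55.0 CPM in the 5 KO libraries, against 42.9, 41.3, 41.6, 43.2 and 40.6 CPM in the 5 WT libraries. Every KO library was above every WT library, and KO 1 and KO 5 were the highest. Its log2 fold change was 0.31 ± 0.05 (SE) with an edgeR adjusted p of 0.000313. Ndufb6, another membrane-arm subunit, whose promoter window is printed above, had 36.5, 36.4, 33.7, 32.4 and 32.4 CPM in KO, against 28.8, 24.1, 27.8, 27.1 and 28.1 CPM in WT. These groups did not overlap either, and the log2 fold change of 0.33 ± 0.06 (SE, edgeR adjusted p = 0.00129) was the highest of the 31.

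Ndufb9, a membrane-arm subunit of the LYR protein family, averaged 60.9 ± 3.52 CPM in KO and 50.9 ± 2.26 CPM in WT (SD, n = 5 each), again without overlap, at a log2 fold change of 0.26 ± 0.05 (SE, edgeR adjusted p = 0.00201). Ndufa13, also known as GRIM-19 and first described in interferon- and retinoic acid-induced cell death, had 75.8, 74.8, 69.2, 66.0 and 71.4 CPM in KO, against 52.6, 55.3, 66.4, 57.1 and 57.5 CPM in WT. Here WT 3 exceeded KO 4 and the groups otherwise stood apart, and the log2 fold change was 0.31 ± 0.06 (SE, edgeR adjusted p = 0.00328). The other 9 called accessory genes were Ndufa5, Ndufa6, Ndufa8, Ndufa10, Ndufb3, Ndufb7, Ndufb8, Ndufc1 and Ndufs5.

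Ndufv1, a core subunit that binds NADH and flavin, averaged 42.9 ± 1.86 CPM in KO and 38.9 ± 2.41 CPM in WT (SD, n = 5 each, edgeR adjusted p = 0.062). Ndufs1, the large iron-sulfur subunit, had 71.9, 67.2, 74.2, 70.7 and 74.7 CPM in KO, against 70.5, 65.6, 62.4, 63.5 and 67.4 CPM in WT. KO 2 was the lowest KO library and lay below WT 1 and WT 5, and the log2 fold change was 0.12 ± 0.05 (SE, edgeR adjusted p = 0.063). Ndufv2, another iron-sulfur subunit of the same NADH-oxidising module, had an edgeR adjusted p of 0.0623. Ndufv1, Ndufv2 and Ndufs1 were singled out after their values were seen.

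The largest estimate in complex I that was not called was that of Ndufa11, a membrane-arm subunit, at a log2 fold change of 0.32 ± 0.15 (SE, edgeR adjusted p = 0.132). Its KO libraries spread from 17.7 to 31.5 CPM and its WT libraries from 16.7 to 23.6 CPM. Ndufa4, named for complex I but since placed with complex IV, averaged 21.8 ± 2.58 CPM in KO and 23.6 ± 2.05 CPM in WT (SD, n = 5 each), with a log2 fold change of -0.11 ± 0.09 (SE, edgeR adjusted p = 0.384) that was 0.0009 with library totals. Its relative Ndufa4l2, known as a hypoxia-induced gene, had 61 counts over all 10 libraries and Ndufb11b had 0, so neither was tested.

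**Figure D3:**
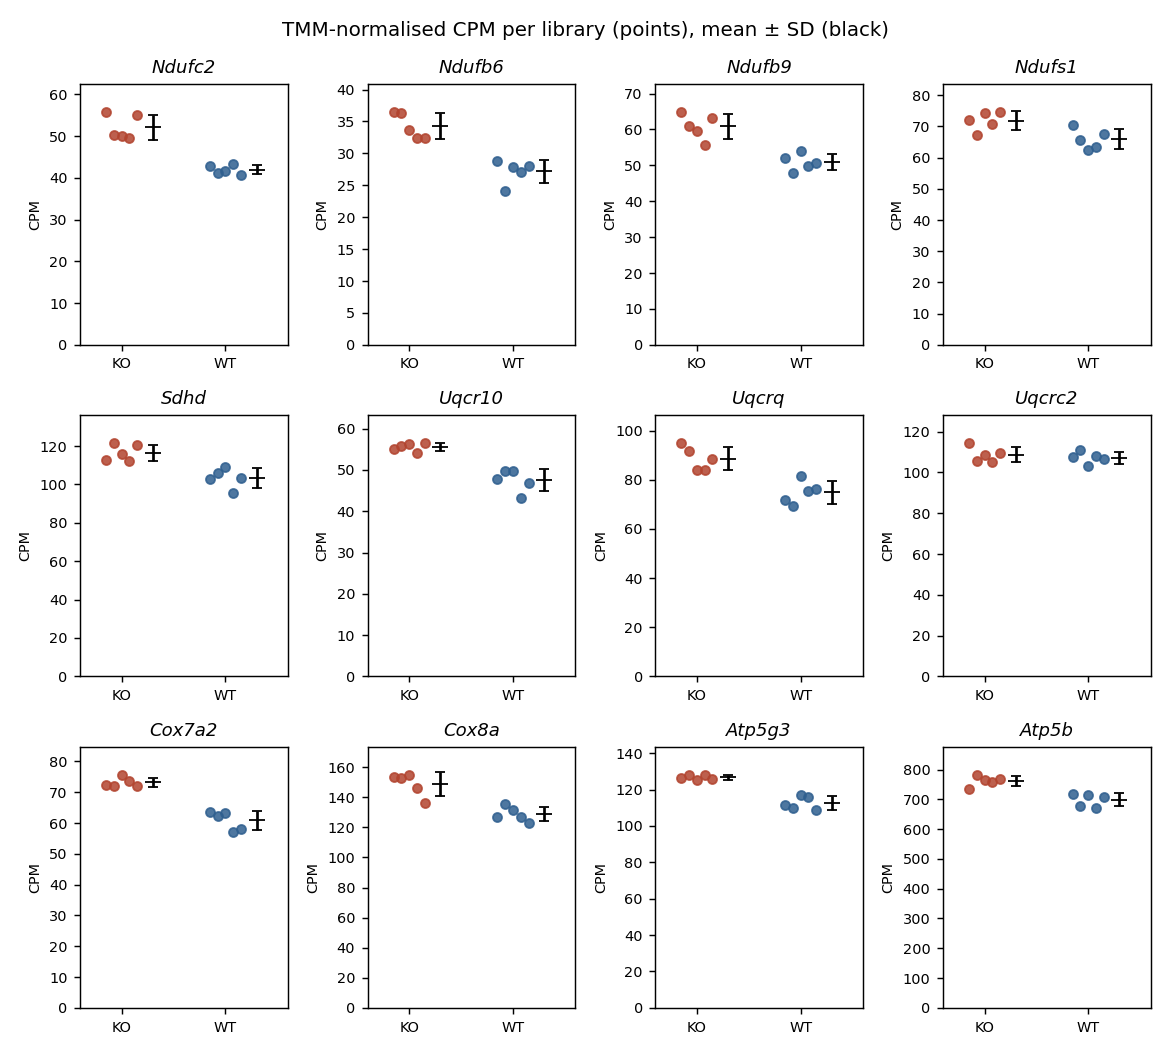
TMM-normalised CPM (y axes, from 0) of 12 respiratory genes in each library, KO left of WT, with black bars for the mean ± SD of 5 libraries. Ndufs1 and Uqcrc2 overlap between genotypes, and for the other 10 genes shown every KO point lies above every WT point.

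Complex II, succinate dehydrogenase, is wholly nuclear-encoded, and both of its membrane anchors passed the test in the main comparison, whereas its catalytic subunits did not. This division depended on libraries and scaling, since 3 of the 4 genes were called higher without KO 1 and all 4 with library totals, beside 13.6% and 29.3% of all genes. With the replicate block, whose numbers did not pair the libraries, 1 was called, beside 12.2% of all genes. Sdhd, an anchor subunit on chromosome 9 (50507657 to 50515112 as the table lists it), had 113, 122, 116, 112 and 120 CPM in KO, against 103, 106, 109, 95.7 and 103 CPM in WT. All KO libraries were above all WT libraries, at a log2 fold change of 0.17 ± 0.04 (SE, edgeR adjusted p = 0.0101). Sdhc, the other anchor, averaged 98.3 ± 2.09 CPM in KO and 90.4 ± 3.11 CPM in WT (SD, n = 5 each), a log2 fold change of 0.12 ± 0.04 (SE, edgeR adjusted p = 0.0241). The lowest KO library of Sdhc, KO 5, was just above the highest WT library, WT 3, and its call was lost without KO 1 and KO 3, with the replicate block and with the length offset, at a largest adjusted p of 0.0666.

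Sdha, the flavoprotein that oxidises succinate, had 217, 237, 241, 242 and 247 CPM in KO, against 228, 224, 222, 232 and 220 CPM in WT. KO 1 was below all 5 WT libraries and the other 4 KO libraries were above them, and the log2 fold change was 0.07 ± 0.04 (SE, edgeR adjusted p = 0.204). Sdha was called higher without KO 1 (0.10, adjusted p = 0.0288) and without KO 1 and KO 3 (0.10, adjusted p = 0.0486). Sdhb, the iron-sulfur subunit, averaged 109 ± 5.76 CPM in KO and 104 ± 5.09 CPM in WT (SD, n = 5 each), with a log2 fold change of 0.07 ± 0.05 (SE, edgeR adjusted p = 0.326). Whether anchors and catalytic subunits differed in their change was not tested.

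In complex III, the cytochrome bc1 complex, 4 of the 8 genes taken by name rose, all of them small subunits without a redox centre. The name rule left out Cyc1, which encodes cytochrome c1 of this complex and is counted below among the electron carriers. Cyc1 was called higher at a log2 fold change of 0.19 ± 0.05 (SE, edgeR adjusted p = 0.0132). The mitochondrially encoded mt-Cytb was also called higher, at 0.30 ± 0.05 (SE, edgeR adjusted p = 0.00129). Uqcr10, a small subunit on chromosome 11, had 55.2, 55.8, 56.2, 54.2 and 56.5 CPM in KO, against 47.8, 49.7, 49.8, 43.2 and 46.9 CPM in WT. The KO libraries lay within 3 CPM of each other and above every WT library, at a log2 fold change of 0.23 ± 0.04 (SE, edgeR adjusted p = 0.00226). Uqcrq, a ubiquinone-binding small subunit, averaged 88.7 ± 4.77 CPM in KO and 74.9 ± 4.62 CPM in WT (SD, n = 5 each), a log2 fold change of 0.24 ± 0.05 (SE, edgeR adjusted p = 0.0043), also without overlap.

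Uqcr11, whose promoter window is printed above, had 30.0, 37.2, 34.0, 35.5 and 33.5 CPM in KO, against 25.9, 26.9, 33.4, 25.9 and 29.4 CPM in WT. WT 3 exceeded KO 1, and the log2 fold change of 0.27 ± 0.08 (SE, edgeR adjusted p = 0.028) lost its call without KO 2, KO 4, WT 1, WT 2 or WT 4 in turn, at a largest adjusted p of 0.0651. Uqcrb, another small subunit, had a log2 fold change of 0.23 ± 0.06 (SE, edgeR adjusted p = 0.02) and lost its call without KO 5 and without KO 1 and KO 3, at a largest adjusted p of 0.0903.

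The core proteins Uqcrc1 and Uqcrc2 and the Rieske iron-sulfur protein Uqcrfs1 did not pass the test, with a median log2 fold change of 0.08. None of these 3 was higher at an unadjusted p under 0.05 or by DESeq2 or limma-voom, and all 3 were called higher with library totals. Uqcrc2 had 114, 106, 109, 105 and 109 CPM in KO, against 107, 111, 103, 108 and 106 CPM in WT, which overlapped. Uqcrh, the hinge protein beside cytochrome c1, was the gene of complex III with an estimate below 0. It had 50.1, 35.7, 55.1, 48.0 and 40.3 CPM in KO, against 48.6, 48.9, 52.9, 50.5 and 47.5 CPM in WT, so KO 2 and KO 5 were low and KO 3 was the highest of all. Its log2 fold change was -0.12 ± 0.10 (SE, edgeR adjusted p = 0.441). It was 0.0032 with library totals and -0.27 without KO 1 and KO 3 (edgeR adjusted p = 0.0458).

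In complex IV, cytochrome c oxidase, 5 of 13 tested genes rose, 4 of them among the 10 subunits common to most tissues. Cox7a2, the widely expressed isoform of subunit VIIa on chromosome 9, had 72.5, 72.2, 75.7, 73.8 and 71.9 CPM in KO, against 63.6, 62.4, 63.2, 56.9 and 58.2 CPM in WT. The groups did not overlap, and the log2 fold change was 0.27 ± 0.04 (SE, edgeR adjusted p = 0.000497). Cox8a, the widely expressed isoform of subunit VIII, had 154, 153, 155, 146 and 136 CPM in KO, against 127, 135, 131, 127 and 123 CPM in WT. KO 5 at 136 CPM was close to WT 2 at 135 CPM, and the log2 fold change was 0.21 ± 0.04 (SE, edgeR adjusted p = 0.00414).

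Cox7b, a small nuclear-encoded subunit on the X chromosome, averaged 81.5 ± 4.99 CPM in KO and 71.7 ± 3.46 CPM in WT (SD, n = 5 each), a log2 fold change of 0.19 ± 0.05 (SE, edgeR adjusted p = 0.0176) that lost its call without KO 1 and KO 3 (adjusted p = 0.0661). Cox6a1 was called at a log2 fold change of 0.11 ± 0.04 (SE, edgeR adjusted p = 0.0499) and held this call in 7 of 20 alternatives. Cox6b1, on the outer face of the complex, averaged 115 ± 5.28 CPM in KO and 106 ± 3.81 CPM in WT (SD, n = 5 each) and was not called (edgeR adjusted p = 0.0569). Cox4i1, which has a part in regulation by ATP, had 232, 240, 222, 178 and 211 CPM in KO, against 154, 199, 214, 203 and 206 CPM in WT, with KO 4 and WT 1 low, and was not called (edgeR adjusted p = 0.292). Cox5b-ps, which the table types as protein-coding although its symbol marks a pseudogene of Cox5b, was the other called gene, at a log2 fold change of 0.21 ± 0.06 (SE, edgeR adjusted p = 0.0184). Its call was lost with the replicate block (adjusted p = 0.0646), and reads of Cox5b and Cox5b-ps may have been split between them.

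The tissue-restricted isoforms of complex IV were near or below the limit of counting. Cox4i2, Cox6b2, Cox7a1, Cox7b2, Cox8b and Cox8c had 2, 48, 80, 2, 0 and 0 counts over all 10 libraries and were not tested. Cox6a2, the heart and muscle isoform of subunit VIa, had 1.34 to 1.66 CPM in KO, against 1.14, 1.02, 1.06, 0.922 and 1.49 CPM in WT. WT 5 lay among the KO libraries, and the log2 fold change of 0.42 ± 0.16 (SE, edgeR adjusted p = 0.0728) was the largest of the 79 without being called. Cox7a2l, which takes part in assembling respiratory supercomplexes, had 95.7, 139, 141, 88.1 and 136 CPM in KO, against 140, 82.5, 135, 131 and 138 CPM in WT. KO 1, KO 4 and WT 2 were low and the other 7 libraries lay between 131 and 141 CPM, and the log2 fold change was -0.06 ± 0.17 (SE, edgeR adjusted p = 0.836), with its sign turning without KO 1, without KO 4 and with library totals.

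Complex V had 7 of 17 tested genes higher, spread over the catalytic head, the rotor ring, the stalk and the membrane part. Atp5b, the catalytic beta subunit, had 735, 783, 766, 759 and 769 CPM in KO, against 718, 679, 714, 671 and 709 CPM in WT. Every KO library was above every WT library, and the log2 fold change was 0.13 ± 0.03 (SE, edgeR adjusted p = 0.0103). Atp5a1, the alpha subunit of the same head, and Atp5e, the epsilon subunit of the central stalk, rose by log2 fold changes of 0.22 ± 0.06 and 0.19 ± 0.05 (SE, edgeR adjusted p = 0.0114 and 0.00907). Atp5d, the delta subunit, had 92.0 to 131 CPM in KO and 91.7 to 135 CPM in WT, and Atp5c1, the gamma subunit, 131 to 155 CPM in KO and 123 to 140 CPM in WT, and neither was called (edgeR adjusted p = 0.869 and 0.0772).

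Atp5g1, Atp5g2 and Atp5g3 encode the same mature subunit c of the rotor ring with different import sequences. Atp5g3, on chromosome 2, had 126, 128, 125, 128 and 126 CPM in KO, against 112, 110, 117, 116 and 109 CPM in WT. Its KO libraries were nearly level and all above WT, at a log2 fold change of 0.17 ± 0.03 (SE, edgeR adjusted p = 0.00245). Atp5g1 had 12.6, 10.2, 10.8, 10.2 and 10.6 CPM in KO, against 9.18, 10.1, 9.09, 8.09 and 9.20 CPM in WT, with KO 1 the highest and WT 2 just under the lowest KO library. Its log2 fold change of 0.25 ± 0.08 (SE, edgeR adjusted p = 0.0356) was called in 10 of 20 alternatives and lost without KO 1, KO 3, KO 5, WT 1, WT 3, WT 4 or WT 5 in turn, at a largest adjusted p of 0.142. Atp5g2 had 1.42 to 2.03 CPM in KO and 1.09 to 2.22 CPM in WT and was not called (edgeR adjusted p = 0.6).

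Atp5j, coupling factor 6 of the peripheral stalk, had 93.0, 84.7, 87.9, 83.1 and 87.3 CPM in KO, against 76.3, 69.0, 79.2, 76.9 and 77.4 CPM in WT, a log2 fold change of 0.20 ± 0.05 (SE, edgeR adjusted p = 0.00629) without overlap. Atp5k, subunit e of the membrane part, which helps ATP synthase form dimers, had 25.1, 24.8, 25.6, 23.8 and 29.7 CPM in KO, against 19.6, 19.2, 23.0, 21.9 and 20.7 CPM in WT. KO 5 was the highest and KO 4 was still above WT 3, and the log2 fold change was 0.30 ± 0.07 (SE, edgeR adjusted p = 0.00733). Atp5l, subunit g beside it, missed the threshold (log2 fold change 0.17 ± 0.06 SE, edgeR adjusted p = 0.0506), with WT 2 at 10.4 CPM among the KO libraries of 10.2 to 11.1 CPM. The second Atp5o identifier, ENSMUSG00000116933, had 4 counts and was not tested.

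The spread between libraries varied from gene to gene. Over the 79 genes the median coefficient of variation was 6.03% in KO and 6.0% in WT. In 15 genes it exceeded 15% in at least 1 genotype, and none of these 15 was called, as the spread enters the SE of the test. Ndufa1, a small membrane-arm subunit, is among the 15, with 43.8, 44.5, 43.4, 42.3 and 40.0 CPM in KO, against 20.1, 41.6, 42.8, 38.6 and 37.6 CPM in WT. WT 1 alone was low, and the other 4 WT libraries overlapped KO (edgeR adjusted p = 0.293). Cox5a had KO 2 at 80.5 CPM beside 117 to 128 CPM in the other KO libraries, and 87.8 to 114 CPM in WT. The low library was thus not the same from gene to gene.

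**Figure D4:**
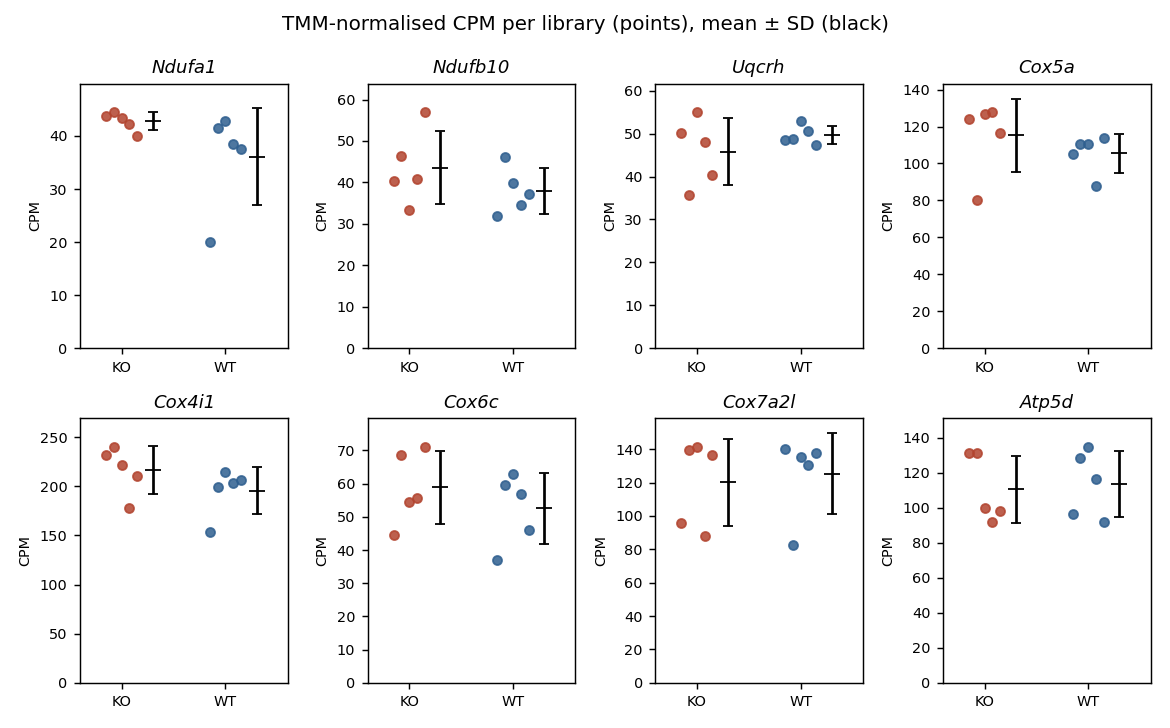
TMM-normalised CPM (y axes, from 0) of 8 respiratory genes that were not called, in each library, KO left of WT, with black bars for the mean ± SD of 5 libraries. WT 1 is low for Ndufa1 and Cox4i1, WT 2 for Cox7a2l and KO 2 for Cox5a.

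The gene length implied by the deposited table is not a transcript length, since for some genes it exceeded the listed span of the gene. Atp5g1, for example, had 9797 implied bases on a span of 95959678 to 95966496. Levels per kilobase therefore hold on this scale only, and another measure of length could rank the genes otherwise. Per kilobase of this implied length, Cox8a had the highest level, at 141 CPM per kb in KO and 122 CPM per kb in WT. Cox6a1 followed with 128 CPM per kb in KO and 119 CPM per kb in WT, then Atp5b with 110 CPM per kb in KO and 101 CPM per kb in WT. Among genes that passed the low-count filter, the low end held Atp5g2 with 0.817 CPM per kb in KO and 0.729 CPM per kb in WT, and Ndufb4, an accessory subunit of complex I, with 0.654 CPM per kb in KO and 0.543 CPM per kb in WT. Ndufa1 (102 CPM per kb in KO, 86.2 CPM per kb in WT) led complex I and Sdhd (94.7 CPM per kb in KO, 84.0 CPM per kb in WT) led complex II. The median implied length was 1333 bases among respiratory genes called higher and 2794.5 bases among those tested without a call, beside 5784.5 bases for all genes tested. The fit with a length offset used the same implied lengths. It called 30 respiratory genes higher at a median of 0.13 on the log2 scale, beside 14.2% of all genes called higher and 15.3% lower.

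Genes that build, feed and control the chain were called in both directions, and their counts depended on scaling. Shares over all genes were 14.1% higher and 15% lower in the main comparison, and 29.3% higher and 9.43% lower with library totals. Of 47 assembly factors tested, 10 rose and 4 fell at a median log2 fold change of 0.14, and 23 were higher and 2 lower with library totals. Coa5, needed for complex IV assembly in human cells, fell to 214 ± 15.3 CPM in KO, against 329 ± 5.33 CPM in WT (SD, n = 5 each), a log2 fold change of -0.62 ± 0.05 (SE, edgeR adjusted p = 2.17e-06). Tmem126b, a complex I assembly factor, averaged 22.4 ± 0.942 CPM in KO and 17.6 ± 0.512 CPM in WT (SD, n = 5 each), a log2 fold change of 0.35 ± 0.05 (SE, edgeR adjusted p = 0.000169). Lrpprc, which stabilises mitochondrial mRNAs, rose by a log2 fold change of 0.24 ± 0.04 (SE, edgeR adjusted p = 0.000407). All 3 were called in all 20 alternatives.

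Of 22 electron carriers and entry enzymes, 5 rose, 1 fell and the median log2 fold change was 0.07, and with library totals 10 were higher and 1 lower. Gpd2, the mitochondrial glycerol-3-phosphate dehydrogenase that feeds electrons to ubiquinone, fell to 135 ± 3.62 CPM in KO, against 163 ± 4.22 CPM in WT (SD, n = 5 each, log2 fold change -0.27 ± 0.03 SE, edgeR adjusted p = 8.28e-05). Coq7 and Coq9, which act in ubiquinone synthesis, rose by log2 fold changes of 0.42 ± 0.06 and 0.28 ± 0.04 (SE, edgeR adjusted p = 0.000388 and 0.000478). Of 7 tested genes for ADP/ATP and phosphate exchange and uncoupling, 3 rose and 0 fell (median 0.09), and all 7 were called higher with library totals and 1 with the length offset. The 3 were Slc25a4, an ADP/ATP carrier, at 0.28 ± 0.04 (SE, edgeR adjusted p = 0.000402), the outer-membrane channel Vdac1 at 0.12 ± 0.04 and the carrier Slc25a5 at 0.09 ± 0.03 on the log2 scale (edgeR adjusted p = 0.0257 and 0.0445). Vdac1 and Slc25a5 lost their calls with the replicate block and with the length offset, among others.

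Of 13 tested regulators of nuclear respiratory genes, 2 rose, 2 fell and the median log2 fold change was 0.04, shares close to those over all genes, and with library totals 6 were higher and 0 lower. Ppargc1b, a coactivator of respiratory gene transcription, averaged 16.0 ± 1.31 CPM in KO and 11.7 ± 1.30 CPM in WT (SD, n = 5 each), a log2 fold change of 0.45 ± 0.09 (SE, edgeR adjusted p = 0.00201). Nrf1, which encodes the factor named for the first motif above, was lower at -0.20 ± 0.06 (SE, edgeR adjusted p = 0.0256), and Tfam, the packaging and transcription factor of mitochondrial DNA, at -0.18 ± 0.05 (SE, edgeR adjusted p = 0.0211). Nrf1 lost its call in 10 of 20 alternatives, among them the length offset and leaving out KO 1, KO 3, KO 5, WT 3, WT 4 or WT 5 in turn. Tfam lost its call in 5, among them leaving out KO 2 or WT 4. The largest adjusted p-values were 0.276 for Nrf1 and 0.391 for Tfam, both with library totals. Of the 13 mitochondrially encoded subunits of the same complexes, 3 rose (mt-Nd1, mt-Nd3 and mt-Cytb) and 0 fell by edgeR, with a median log2 fold change of 0.18 and summed levels of 13082 to 14351 CPM in KO that lay within the 11979 to 15384 CPM of WT. By the DESeq2 Wald test 3 of the 13 were called higher and 1 lower. With library totals 9 of the 13 were called higher, with the length offset 2 were higher and 1 lower, and the call of mt-Nd1 was lost in 10 of 20 alternatives.

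**Figure D5:**
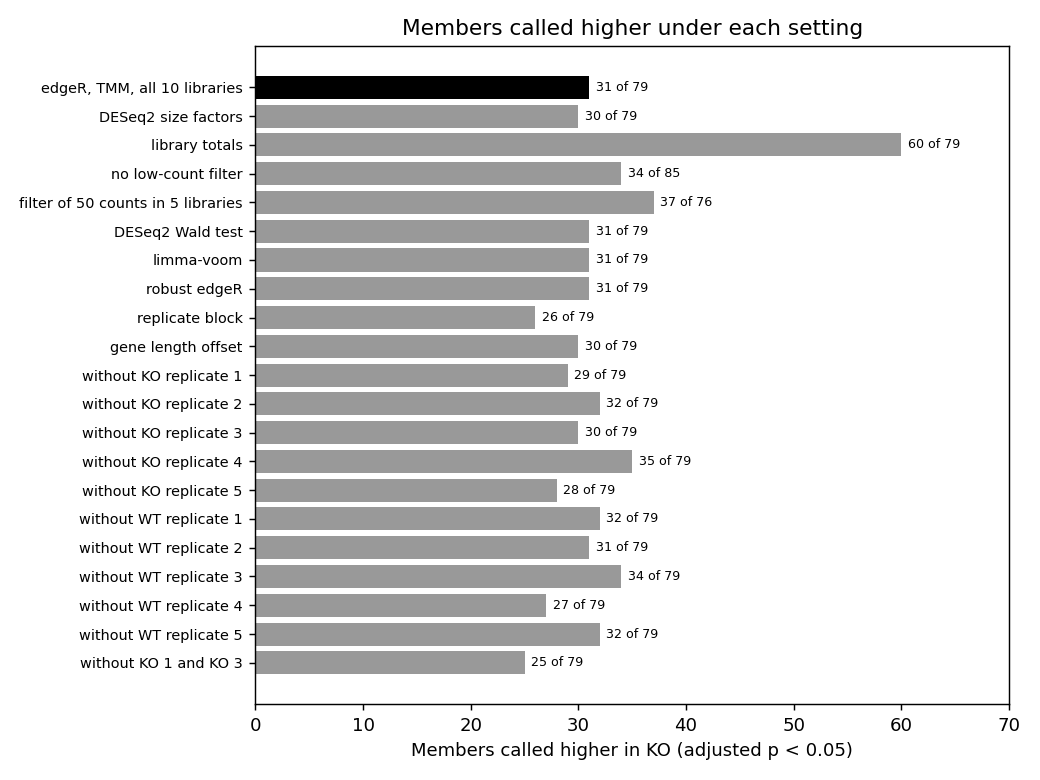
Number of respiratory genes called higher in KO (x axis, count) under the main comparison (black bar) and each of 20 alternatives (grey bars), with the number tested beside each bar. The count is 60 with library totals and between 25 and 37 in the other 19 alternatives. Of all genes, 29.3% are called higher with library totals and 7.24% to 17.7% in the other 19.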

How the data were processed

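Counts per gene and library were used as deposited: the authors' table holds whole-number counts, per the file headers, for 5 WT columns and 5 columns headed SI, taken as KO by elimination. The same deposited table gives FPKM, from which only gene lengths were derived, and 5 further columns of per-sample values (FPKM of the SI columns) were not used. The submitters' processing notes name CASAVA 1.8, TopHat2 2.0.6 and a pair of genome builds, mm10 and GRCm39, without saying which was used for what. For the counter, annotation and strand setting the sources used here give nothing, so overlapping genes and near-identical copies could share reads. Gene coordinates are as the table lists them, and promoter windows are on GRCm38.p6.

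Genes were filtered with filterByExpr (minimum count 10), which left 14436 genes holding 99.87% of counts, scaled by TMM and tested with edgeR 4.0.16 (quasi-likelihood, KO against WT, all 10 libraries, no covariate, R 4.3.3). CPM values are TMM-normalised, SEs were derived from the estimate and the F statistic, and called means an adjusted p under 0.05. The biological coefficient of variation was 12.8%. Alternatives used DESeq2 1.42.0 and limma 3.58.1 (voom), library totals, other filters, a replicate block, a gene length offset and leaving out libraries. A count of 0 allows up to 3 counts, or 0.132 to 0.155 CPM by library, for counting error only. Libraries of 1 genotype differed by more than sampling noise, at a chi-square of 9.98 to 19.27 per gene, and none was merged. The test was tried first on simulated counts with known changes, with the spread set by the trend over all genes. It recovered 4% of 1.15-fold, 32% of 1.25-fold, 82% of 1.5-fold and 100% of 2-fold changes (50 genes each). The simulation was not run at the spread of the respiratory genes, so these shares do not give the recovery for them. Their median coefficient of variation was 6.03% in KO and 6.0% in WT.

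The respiratory genes and other lists were chosen with earlier results of these data known. Genes were named per complex by rule: up to 4 called genes with the smallest p, the highest level per kilobase, the uncalled gene with the largest estimate, untested genes and alternative isoforms, and up to 3 called genes per other list. Ndufv1, Ndufv2, Ndufs1, Ndufab1, Uqcrc1, Uqcrc2, Cyc1, Sdhb, Cox5a, Atp5a1, Atp5c1, Atp5d, Ndufb4 and the 9 complex I genes listed only as called were named outside that rule after their values were seen. The counts include 1 gene whose own values are not reported here, and it is not plotted.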

Additional observations from a re-analysis of the deposited data

Results flagged for a closer look

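Among 78 groups of 5 libraries examined, 5 held a library far from the other 4 of its genotype, and chance alone flags about 1 in 20 such groups. Ndufa1 was at 20.1 CPM in WT 1, against 37.6 to 42.8 CPM in the other WT libraries, and Cox4i1 was at 154 CPM in WT 1, against 199 to 214 CPM. Cox7a2l was at 82.5 CPM in WT 2, against 131 to 140 CPM in the other WT libraries, and Atp5l was at 10.4 CPM in WT 2, against 8.96 to 9.35 CPM. Atp5g1 was at 12.6 CPM in KO 1, against 10.2 to 10.8 CPM in the other KO libraries. Of these 5 genes only Atp5g1 was called higher in KO, and that call was lost without KO 1.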

How the results depend on the processing

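Of the 31 genes called higher, 21 were called in all 20 alternatives and 10 were lost in at least 1 (Atp5g1, Cox5b-ps, Cox6a1, Cox7b, Ndufa6, Ndufa10, Ndufb8, Sdhc, Uqcr11 and Uqcrb). Leaving out 1 library at a time gave 27 to 35 genes called higher, beside 12.2% to 14.1% of all genes. With library totals 60 were called higher (29 in complex I, 4 in II, 7 in III, 8 in IV and 12 in V), the median log2 fold change was 0.27, and the estimates of Uqcrh, Cox7a2l and Ndufa4 turned to 0.0032, 0.057 and 0.0009. The gene length offset gave a median of 0.13 and 1 call in complex II. The replicate block gave 26 calls in all, with 1 in complex II and 3 in complex IV, beside 12.2% of all genes called higher. Replicate numbers did not pair the libraries, with correlations of same-numbered deviations of 0.0879, -0.0401, -0.114, -0.0133 and 0.184, and only number 5 correlated best with its own. Over the 10 fits that leave out 1 library, Cox7a2l ranged from -0.17 to 0.035, above 0 without KO 1 (0.012) and without KO 4. Without KO 1 and KO 3, chosen after seeing the data, 25 genes were higher and 1 lower. The cause of these changes was not tested. Depth limits the isoforms with fewer than 100 counts in all, and a p past the threshold does not show that a gene did not differ.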

Other observations

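Processed pseudogenes named after these genes also held counts. Ndufs5-ps had 378, 444, 351, 311 and 383 counts in KO 1 to KO 5, against 267, 286, 325, 262 and 288 in WT 1 to WT 5, and Ndufa12-ps had 311 to 469 counts in KO, against 275 to 338 in WT. Ndufb4c had 125 to 162 counts in KO, against 107 to 138 in WT, which is more than Ndufb4 itself with 38 counts in KO 1. Whether reads of the parent genes were assigned to these copies was not tested.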
